A study of Mus musculus with 20 samples.

Results

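The comparison covered microglia sorted at 2 weeks and at 1 week after full transection (FT) of the spinal cord, and its members were the 3 samples of each of these groups, 6 of the 20 samples in all. They were chosen by their labels, and the comparison was made across all 16810 genes of the deposited table. Every sample came from CX3CR1+/eGFP mice, heterozygotes in which eGFP replaces a copy of the fractalkine receptor gene, a genotype that the non-injured (NI) controls shared. In FT the cord of adult mice (12 weeks of age) was cut completely at the thoracic level, and in lateral hemisection (HS) a single side was cut, with samples at 72 h (3 FT, 3 HS), 1 week (3 FT, 2 HS) and 2 weeks (3 FT, 3 HS) beside 3 NI samples. Cells with high eGFP were sorted from a segment centred on the lesion of perfused male mice for sequencing of polyadenylated RNA. The reporter also marks peripheral monocytes, so that the sort does not separate these from microglia by genotype. The study used more FT mice than it has FT samples. How mice were divided among the libraries is not given in the sources used here, so that p-values measure the spread between samples. The main fit estimated this spread over all 20 samples and not from the 6 alone.

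Microglia are the resident macrophages of the central nervous system and hold a surveying state marked by genes such as *P2ry12*, *Tmem119* and *Cx3cr1*. After an injury they divide, clear debris and myelin, and secrete cytokines, proteases and growth factors, and monocyte-derived macrophages join them in the lesion. Over the weeks that follow, cells loaded with lipid are known to express a further set of genes, among them *Itgax*, *Lpl*, *Spp1* and *Gpnmb*. Macrophages of the meninges and vessels form a separate population, marked by genes such as *Mrc1*, *Lyve1* and *Folr2*.

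The cells carried the markers of their label. *P2ry12* lay between 1182 and 3843 CPM in the 6 samples, and *Csf1r*, the receptor that microglia need to survive, between 5029 and 9597 CPM. CPM here is the authors' read count normalised by library size, a unit that the labels do not name. Column totals still differed, at 878070 CPM in FT 1 week replicate 1 and 986954 to 1118930 CPM in the others of the 6. Each of the 22 homeostatic markers reached at least 1 CPM. Other cell types were present at lower summed levels, namely 41.5 to 61.2 CPM for 16 lymphocyte genes, 58.3 to 109 CPM for 16 neuronal genes and 214 to 597 CPM for 18 astrocyte genes, while oligodendrocyte genes summed to between 3680 and 6929 CPM, mostly from *Trf* and *Mbp*. Of the related myeloid cells, monocyte and infiltrating macrophage genes summed to 315 to 843 CPM and border macrophage genes to 474 to 1035 CPM. The monocyte list includes *Nr4a1*, with 1997, 280 and 178 reads at 1 week and 158, 4359 and 4652 at 2 weeks, so that its sum is not read as monocyte content. Neutrophil genes summed to 669 to 1093 CPM, mostly from *Csf3r*. Fewer cells of a type and less RNA per cell cannot be told apart in these bulk samples. The 6 samples compared had between 11.6 and 14.2 M reads on the table's genes, and 3 reads corresponded to 0.222 to 0.281 CPM. The HS samples at 1 and 2 weeks had fewer, 4.59 to 8.65 M, with 3 reads at 0.361 to 0.641 CPM. Those at 72 h after FT had 3.87 to 12.5 M, with 3 reads at 0.267 to 0.876 CPM. These limits cover counting error only.

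FT 1 week replicate 1 stood apart from its group. Its root mean square log2 difference across genes was 0.756 and 0.768 against the other FT 1 week samples, which differed from each other by 0.425. The median difference was 0.556 within FT 2 weeks and 0.560 between the times, and no pair agreed within sampling noise. Leaving it out moved many counts, and values without it stand beside the calls and lists below.

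Between the times after FT, 12 genes were differentially expressed (DE). A gene was called DE where it differed by 2-fold or more with a limma p, adjusted by the Benjamini-Hochberg method across the 16810 genes, under 0.05. These were 0.0714% of all genes tested. *Postn*, *Mmp12*, *Il1rn*, *Itgax*, *Flt1*, *Tubb6*, *AI504432* and *Tnfsf13b* rose from 1 week to 2 weeks (0.0476% of genes). *Folr2*, *Gpx3*, *Wfdc17* and *Pde2a* fell (0.0238%). With all columns scaled to the same total, 3 genes were DE higher and 5 lower, and with quantile normalization 4 and 4. At an unadjusted p under 0.05, 773 genes differed (4.6% of genes), with 480 higher (2.86%) and 293 lower (1.74%) at 2 weeks. This split depended on scale and sample, being 331 higher and 380 lower with all columns scaled to the same total, and 998 and 1052 without FT 1 week replicate 1. Over the whole table the median log2 change was 0.01.

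The upstream sequence of 4 DE genes is shown because 3 of them are the DE genes that hold a searched motif and the fourth, *Folr2*, had the largest decrease. Each is the 250 bases before a RefSeq start site (GRCm38.p6), written 5′ to 3′ on the gene's own strand, with motif matches in capitals.

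Mmp12 (chr9:7344147-7344396, plus strand): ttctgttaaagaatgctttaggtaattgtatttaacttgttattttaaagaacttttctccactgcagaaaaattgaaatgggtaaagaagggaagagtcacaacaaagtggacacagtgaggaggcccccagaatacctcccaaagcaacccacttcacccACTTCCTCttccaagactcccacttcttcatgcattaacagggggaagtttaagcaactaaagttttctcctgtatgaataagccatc

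Itgax (chr7:128129300-128129549, plus strand): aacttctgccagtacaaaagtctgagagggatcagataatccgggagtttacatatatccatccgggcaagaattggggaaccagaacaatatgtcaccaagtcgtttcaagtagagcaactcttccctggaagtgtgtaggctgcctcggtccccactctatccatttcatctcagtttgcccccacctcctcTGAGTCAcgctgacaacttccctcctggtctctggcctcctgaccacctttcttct

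Il1rn (chr2:24336610-24336859, plus strand): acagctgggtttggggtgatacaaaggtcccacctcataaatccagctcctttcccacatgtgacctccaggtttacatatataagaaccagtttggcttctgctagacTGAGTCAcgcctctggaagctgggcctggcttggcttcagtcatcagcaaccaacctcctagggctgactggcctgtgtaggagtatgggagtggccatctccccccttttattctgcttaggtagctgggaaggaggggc

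Folr2 (chr7:101857191-101857440, minus strand): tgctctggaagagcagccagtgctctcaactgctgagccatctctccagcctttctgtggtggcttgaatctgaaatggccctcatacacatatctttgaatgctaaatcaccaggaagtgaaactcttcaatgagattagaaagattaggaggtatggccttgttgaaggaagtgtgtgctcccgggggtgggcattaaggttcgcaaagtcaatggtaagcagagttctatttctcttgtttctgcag

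The motifs searched on both strands were TGANTCA for AP-1, GAGGAAGT for PU.1, GGGNNTTCC for NF-kB and the interferon response element. A window was matched for 10 of the 12 DE genes and for 12899 genes of the table. The AP-1 letters lay in the windows of *Itgax* and *Il1rn* (2 of 10, against 5% of all windows), and the PU.1 letters lay on the opposite strand in that of *Mmp12* (1 of 10, against 2.47%). The NF-kB letters (5.87% of all windows) and those of the interferon response element (2.74%) were in none of the 10. A match is a description of these letters and not of binding.

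*Postn* and *Mmp12* had the largest increases. *Postn* (chromosome 3 of GRCm38, 54361109 to 54391037, plus strand) encodes periostin, a matrix protein of healing tissue. It had 8.82, 12.4 and 12.6 CPM in the 3 samples at 1 week and 72.5, 40.9 and 42.0 CPM at 2 weeks. The means were 11.3 ± 2.13 and 51.8 ± 17.9 CPM (SD, n = 3 each). On the log2 scale it rose by 2.12 with a standard error of 0.24 (limma adjusted p = 0.00011). The groups did not overlap, and the NI mean was 6.69 CPM, so that the transcript was close to its uninjured level at 72 h (6.66 CPM after FT) and highest in the latest samples.

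*Mmp12* (chromosome 9, 7344381 to 7369499) encodes macrophage elastase, which degrades elastin and other matrix. Its levels were 11.6, 14.6 and 17.7 CPM at 1 week and 63.1, 59.3 and 61.3 CPM at 2 weeks. It rose by 2.05 on the log2 scale (standard error 0.32, limma adjusted p = 0.00865), from 14.6 ± 3.01 to 61.2 ± 1.90 CPM (SD, n = 3 each). The span of *Mmp1b* overlaps the end of this gene on the opposite strand, and *Mmp1b* was below 1 CPM in each of the 6 samples.

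*Itgax* (chromosome 7, 128129547 to 128150657) encodes CD11c, the integrin subunit by which dendritic cells and lipid-laden microglia are recognised. The 3 samples at 1 week had 47.3, 52.1 and 52.9 CPM and those at 2 weeks 151, 159 and 151 CPM, so that replicates lay close together within each time. It rose by 1.59 on the log2 scale with a standard error of 0.28 (limma adjusted p = 0.0295). In NI samples the mean was 15.3 CPM, and it was 25.1 CPM at 72 h after FT.

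Ligands and receptors of immune and growth factor signalling were the next group to rise. *Il1rn* (chromosome 2, 24336853 to 24351494), which encodes the antagonist of the interleukin-1 receptor, had 23.7, 21.4 and 22 CPM at 1 week. At 2 weeks it had 45.4, 98.8 and 94.7 CPM, 1.73 higher on the log2 scale with a standard error of 0.33 (limma adjusted p = 0.0426). Replicate 1 at 2 weeks was about level with the 72 h mean after FT (50.2 CPM), and the other two samples were above it. *Flt1* (chromosome 5, 147561604 to 147726011, minus strand) encodes a receptor of vascular endothelial growth factor and is also an endothelial marker. It measured 11.6, 4.95 and 5.60 CPM at 1 week and 18.5, 20.4 and 21.5 CPM at 2 weeks (1.48 on the log2 scale with a standard error of 0.26, limma adjusted p = 0.0314). Of the 16 endothelial and pericyte genes, *Flt1* was the only member at an unadjusted p under 0.05, and the median over the list was 0.26. *Tnfsf13b* (chromosome 8, 10006467 to 10039072), which encodes the B cell survival factor BAFF, had 27.8, 46.7 and 46.8 CPM at 1 week and 90.3, 80.9 and 72.6 CPM at 2 weeks (log2 fold change 1.03, limma adjusted p = 0.0331). Unlike the other genes that rose, it was at a mean of 78.4 CPM in NI samples, so that its 2 week level was the uninjured one and its 1 week level was lower.

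A tubulin and a non-coding transcript completed the genes that rose. *Tubb6* (chromosome 18, 67390717 to 67402749), a beta-tubulin of microtubules, had 32.2, 47.6 and 44.4 CPM at 1 week and 71.7, 103 and 99.6 CPM at 2 weeks (log2 fold change 1.14, limma adjusted p = 0.0426). Its mean at 72 h after FT was 105 CPM, so that the 1 week samples formed a low point between the earlier and later ones. *AI504432* (chromosome 3, 107039504 to 107054347), annotated as a long intergenic non-coding RNA, had 11.1, 9.05 and 8.67 CPM and then 17.3, 21.2 and 25.0 CPM (log2 fold change 1.09, limma adjusted p = 0.0314).

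Receptors, secreted proteins and an enzyme made up the 4 genes that fell. *Folr2* (chromosome 7, 101839988 to 101857194, minus strand) encodes a folate receptor typical of border macrophages. It fell from 113, 77.1 and 110 CPM at 1 week to 14.9, 20.8 and 15.2 CPM at 2 weeks, which is -2.52 on the log2 scale with a standard error of 0.32 (limma adjusted p = 0.000536), the largest change among the DE genes. Its mean in NI samples was 6.47 CPM and at 72 h after FT 63.5 CPM.

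*Gpx3* (chromosome 11, 54902453 to 54910377) encodes a secreted selenium-containing glutathione peroxidase. It fell from 83.1, 108 and 126 CPM to 34.3, 23.7 and 24.2 CPM, which is -1.93 on the log2 scale with a standard error of 0.20 (limma adjusted p = 8.38e-05, the smallest of any gene). All 6 samples remained above the NI mean of 4.08 CPM. *Wfdc17* (chromosome 11, 83703991 to 83706268), which encodes a small secreted protein of activated macrophages, fell from 206, 153 and 225 CPM to 54.8, 74.6 and 70.7 CPM (-1.53 on the log2 scale with a standard error of 0.22, limma adjusted p = 0.00219). *Pde2a* (chromosome 7, 101421691 to 101512827), a phosphodiesterase that breaks down cyclic nucleotides, fell from 20.9, 32.8 and 23.5 CPM to 11.9, 11.3 and 10.4 CPM (log2 fold change -1.14, limma adjusted p = 0.0331). The latter went below its NI mean of 22.3 CPM, whereas *Wfdc17* stayed above its own (24 CPM).

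**Figure D1:**
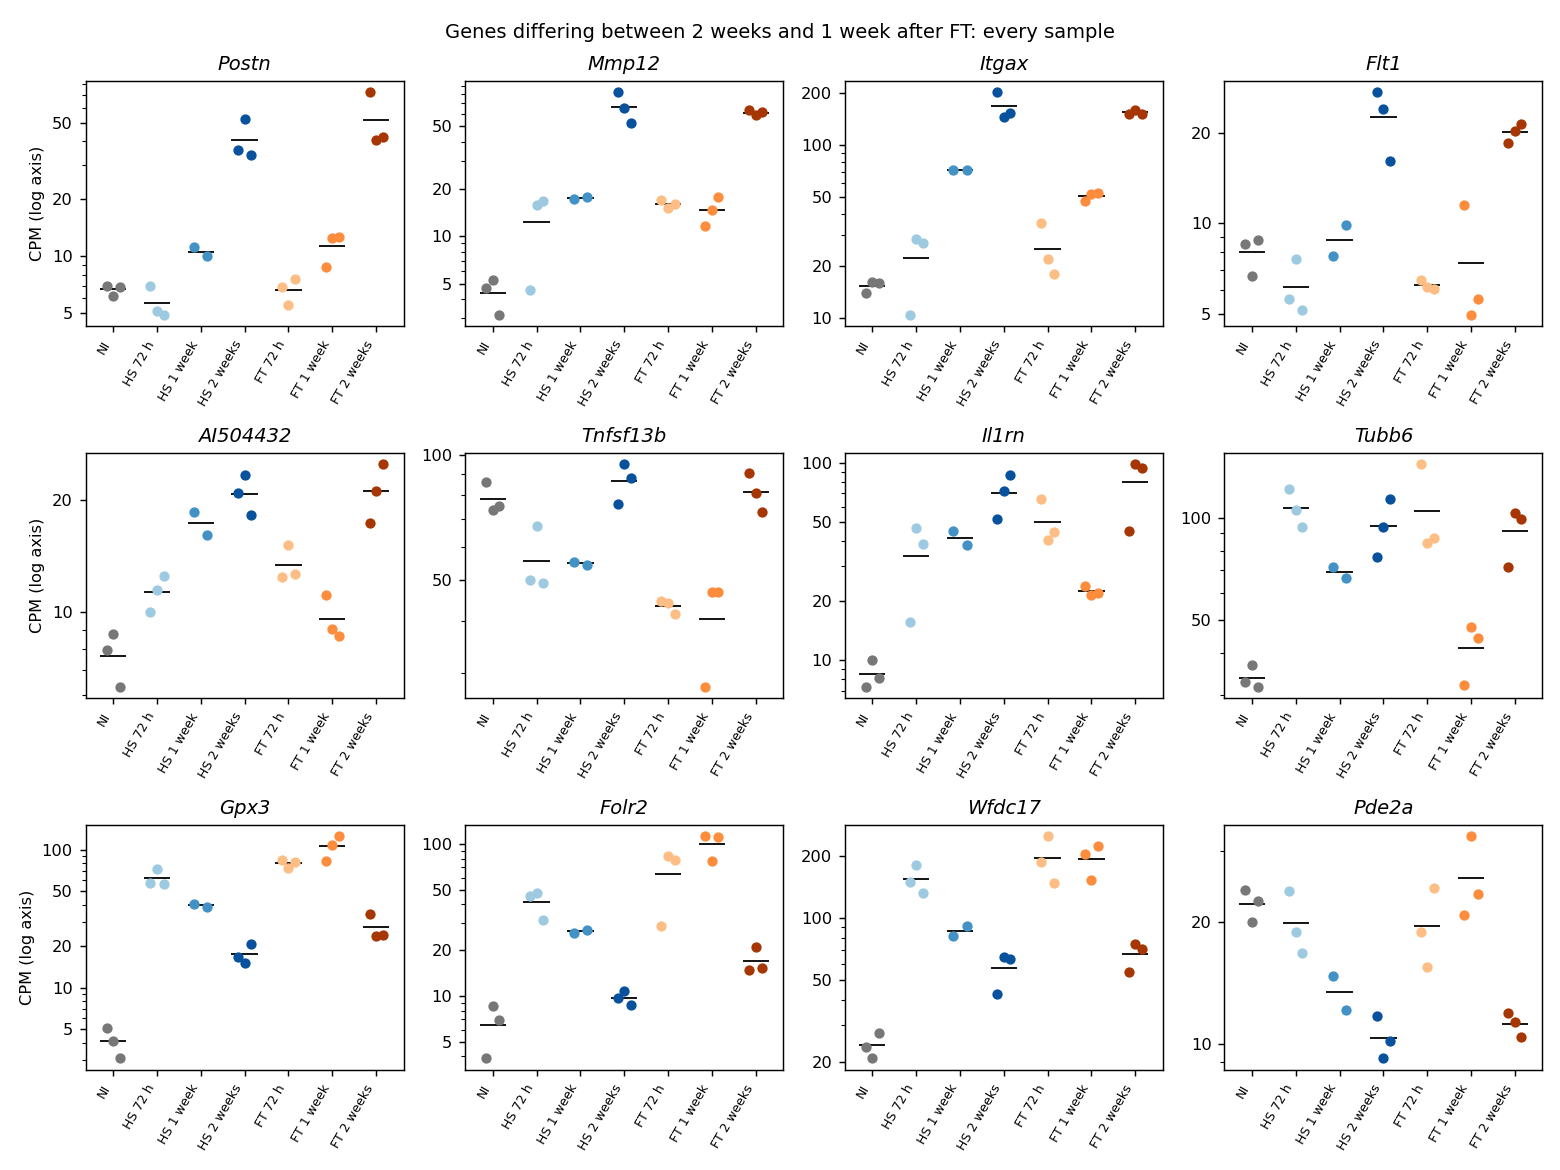
Level of each of the 12 DE genes in every sample, in CPM on a log axis, with 1 point per sample and a line at the group mean, for NI, HS and FT at each time. In all 12 panels the 3 FT 2 weeks points lie beyond the 3 FT 1 week points, with *Mmp12* at 59.3 to 63.1 CPM against 11.6 to 17.7 CPM and *Folr2* at 14.9 to 20.8 CPM against 77.1 to 113 CPM.

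All 12 genes were non-overlapping between the times, as were 1231 of all genes (7.32%, with 4.05% higher and 3.28% lower at 2 weeks). The 12 were called on the same samples, which favours non-overlap. *Gpx3*, *Folr2*, *Postn* and *Wfdc17* stayed DE without any single FT sample. Of these, *Wfdc17* lost the call in fits of just the 6 samples compared, with or without a block for replicate number (largest limma adjusted p = 0.169). The calls of the remaining 8 genes rested on more of the samples. Without FT 2 weeks replicate 2, or without replicate 3, the remaining 8 genes lost the call. Without FT 1 week replicate 2, or without replicate 3, *Itgax*, *Flt1*, *AI504432*, *Pde2a*, *Il1rn* and *Tubb6* lost it, and without FT 1 week replicate 1 *Itgax* (limma adjusted p = 0.0523), *Tnfsf13b* (0.0523), *Il1rn* (0.0593) and *Tubb6* (0.0926) did. *Tnfsf13b* also lost it without FT 2 weeks replicate 1. The largest adjusted p over these alternatives was 0.0648 for *Mmp12*, 0.163 for *Itgax* and 0.17 for *Tnfsf13b*, and it lay between 0.258 and 0.32 for the other five. The direction of each was kept.

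**Figure D2:**
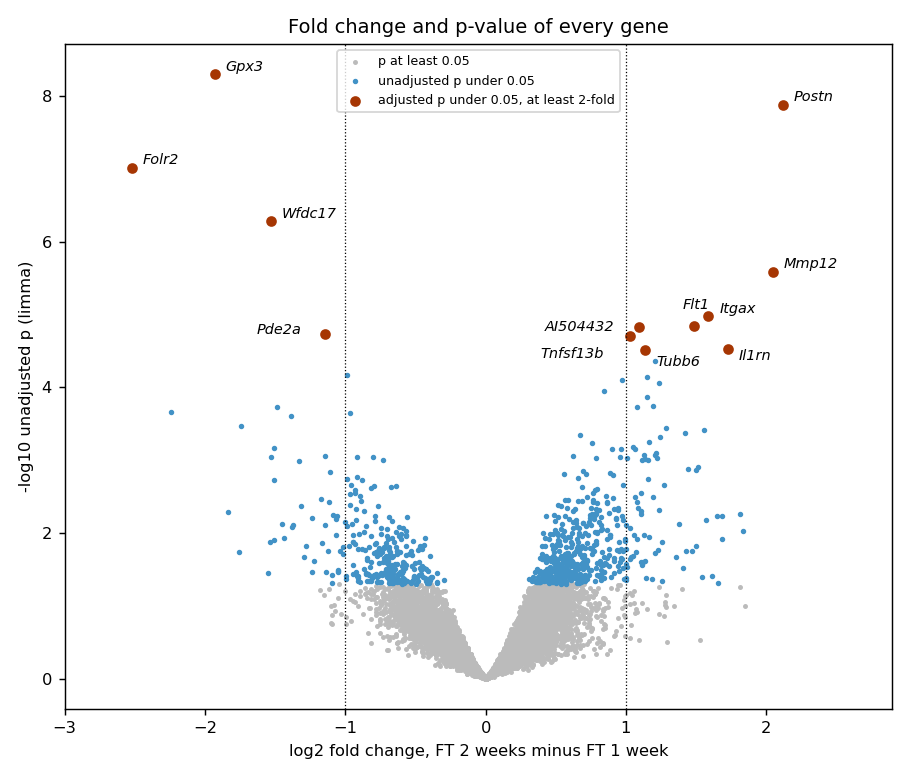
Log2 fold change of each of the 16810 genes (FT 2 weeks minus FT 1 week, horizontal axis) against the negative log10 of its unadjusted limma p (vertical axis), with 1 point per gene and dotted lines at 2-fold. The 12 DE genes are named, *Gpx3* and *Folr2* lying farthest out on the lower side and *Postn* and *Mmp12* on the higher side.

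Below the threshold, the 10 next genes by p that were higher at 2 weeks, none of which passed the adjusted threshold, included receptors for modified lipoprotein and the urokinase system. *Olr1*, a receptor of oxidised low-density lipoprotein, had 11.5, 10.2 and 11.4 CPM at 1 week and 22.6, 26.2 and 29.9 CPM at 2 weeks (log2 fold change 1.21, limma adjusted p = 0.056). *Cd36*, a scavenger receptor that also takes up fatty acids, had 13.3, 22.5 and 25.9 CPM and then 58.1, 43.2 and 35.5 CPM (1.15, limma adjusted p = 0.12). The protease urokinase and its receptor were both in this group, *Plau* being 1.08 higher on the log2 scale (limma adjusted p = 0.14) and *Plaur* 1.23 higher (0.087). The actin regulators *Capg* (1.15) and *Tmsb10* (0.97), the chloride channel gene *Clic4* (0.68), the potassium channel gene *Kcnj9* (1.29) and *5430435G22Rik* (0.84), now named *Rab7b*, were also among them. All 10 were non-overlapping between the times, against 4.05% of all genes, but their choice by small p in these samples favours this. With alternative tests on read counts, *Olr1* passed the DE limits by the edgeR quasi-likelihood test (adjusted p = 0.0383). *Olr1*, *Capg*, *Cd36*, *Plau*, *Plaur* and *Kcnj9* passed by the edgeR likelihood ratio test and by DESeq2.

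Among the 10 next genes that were lower at 2 weeks, also none past the adjusted threshold, were *Stab1* and *F13a1*, a scavenger receptor and a coagulation factor subunit of border macrophages. *Stab1* had 589, 762 and 657 CPM at 1 week and 440, 291 and 309 CPM at 2 weeks (log2 fold change -0.96, limma adjusted p = 0.16), and *F13a1* 15.9, 26.7 and 34.6 CPM against 4.49, 9.23 and 8.02 CPM (-1.75, 0.22). The acute-phase gene *Saa3* had 36.6, 32.1 and 50.4 CPM at 1 week and 5.43, 10.4 and 8.48 CPM at 2 weeks (-2.24, limma adjusted p = 0.16), with an NI mean of 0.324 CPM. *Ltc4s*, the synthase of leukotriene C4 and a gene of homeostatic microglia, went from between 270 and 396 CPM to between 172 and 177 CPM (-0.99, limma adjusted p = 0.08). *Gfap*, the intermediate filament of astrocytes, had 71.4, 119 and 140 CPM at 1 week and 33.0, 58.7 and 27.3 CPM at 2 weeks (-1.49, limma adjusted p = 0.14). *Cfp*, which encodes properdin of the alternative complement pathway, had -1.53, *Cd38*, an enzyme that consumes NAD, -1.33, the selenium carrier *Sepp1* (selenoprotein P) -0.92, the glucocorticoid-induced chaperone gene *Fkbp5* -0.81 and *Phyhd1* -0.73 (log2 fold changes). These 10, likewise chosen by small p, were non-overlapping as well, against 3.28% of all genes. By the edgeR likelihood ratio test and by DESeq2, *Gfap*, *F13a1*, *Cfp* and *Ltc4s* passed the DE limits. *Saa3* passed by the former alone and *Cd38* by the latter alone.

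The same step in time after HS used 5 other samples. There 2 genes were DE (0.0119% of genes), *Postn* (log2 fold change 1.87, limma adjusted p = 0.0094) and *Serpinb7* (-2.19, limma adjusted p = 0.0322), and 789 had an unadjusted p under 0.05 (4.69%). Without either HS 1 week sample, or without HS 2 weeks replicate 2, no gene was DE there (limma, 0 genes), and without HS 2 weeks replicate 3 there was 1. All 12 genes DE after FT had an HS change of the same sign, and 8 of the 12 had an unadjusted p under 0.05 there, against 4.69% of all genes (1.74% higher and 2.96% lower). The HS times did not overlap for 11 of them, *AI504432* excepted, against 19.9% of all genes in this smaller comparison. *Mmp12* went from 17.2 and 17.7 CPM at 1 week after HS to 82.5, 65.0 and 52.7 CPM at 2 weeks (log2 fold change 1.88), *Itgax* from 71.9 and 71.6 to 201, 145 and 153 CPM (1.19), and *Flt1* from 7.76 and 9.86 to 27.4, 24.2 and 16.2 CPM (1.29). For *Gpx3* the HS values were 40.6 and 38.4 CPM and then 16.7, 15.2 and 20.8 CPM (-1.16), and for *Folr2* 25.7 and 27.3 CPM and then 9.67, 10.7 and 8.70 CPM (-1.41). The FT samples at 1 week had higher levels of both than the HS samples of that time, and the 2 week levels of the 2 injuries lay closer together. Both genes were chosen by their fall after FT, which favours this pattern, so that no difference between the injuries is read from it.

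The difference between the injuries was tested as the FT change minus the HS change. For calls within FT, the edgeR quasi-likelihood test on recovered reads gave 13 genes (0.0773%) and the likelihood ratio test 40 (0.238%). For the difference no gene passed (limma, 0 of 16810), and 352 genes had an unadjusted p under 0.05 for it (2.09%), while 1 gene passed by the edgeR likelihood ratio test and 1 by DESeq2. Of the 12 DE genes, 6 had an unadjusted p under 0.05 for the difference. These genes were chosen by their FT change, which favours a difference in the direction of that change, and no order between the injuries is read from it. The difference was -1.11 for *Folr2* (95% interval -2.11 to -0.12), -0.91 for *Wfdc17* (-1.59 to -0.24), -0.78 for *Pde2a* (-1.43 to -0.13), -0.77 for *Gpx3* (-1.41 to -0.13), 0.84 for *AI504432* (0.23 to 1.44) and 0.70 for *Tubb6* (0.03 to 1.37), each on the log2 scale and with an adjusted p above 0.05. For *Postn* the difference was 0.24 (-0.50 to 0.98) and for *Mmp12* 0.16 (-0.84 to 1.17), intervals that include differences of either sign. Outside the DE genes but likewise chosen by its FT change, *Olr1* was at 18.1 to 23.3 CPM in all 5 HS samples, an HS log2 fold change of -0.02 and a difference of 1.23 (0.49 to 1.96).

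**Figure D3:**
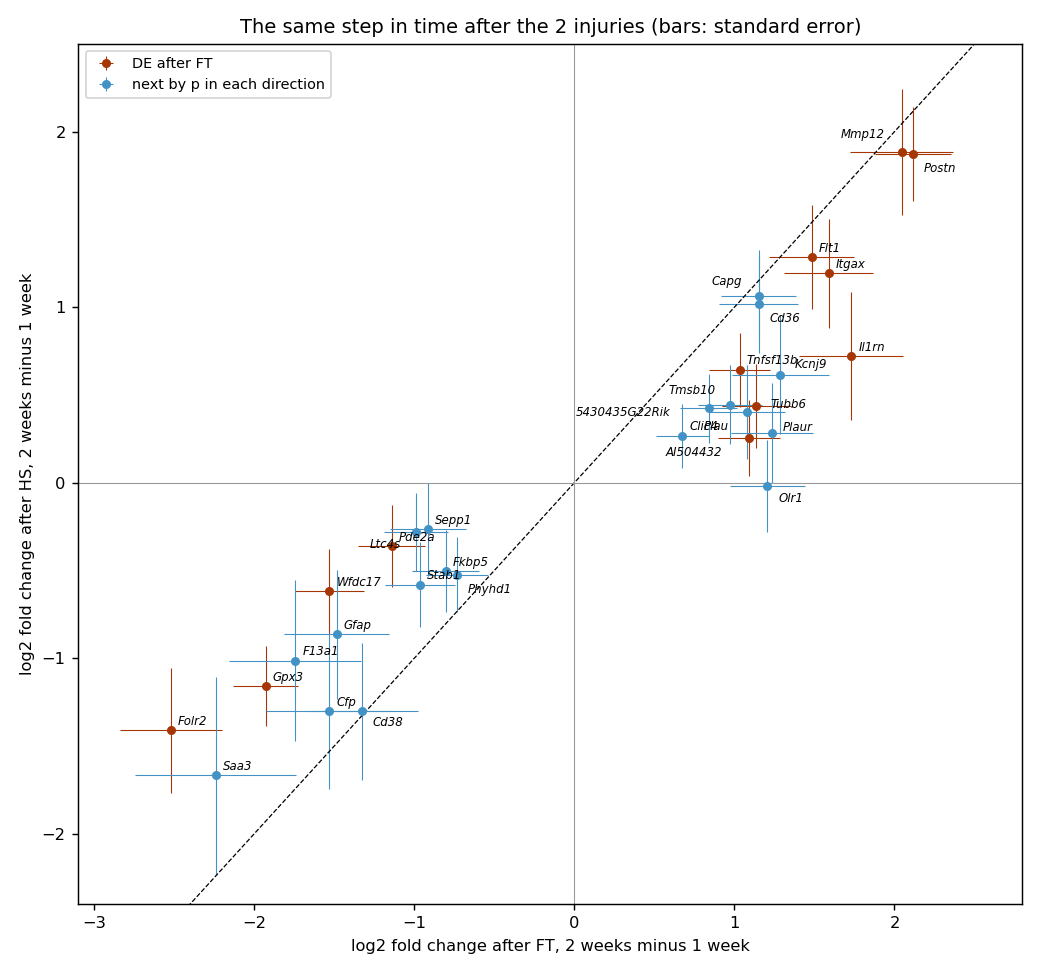
Log2 fold change from 1 week to 2 weeks after FT (horizontal axis) and after HS (vertical axis), with bars for standard errors, for the 12 DE genes and those next by p in each direction that are reported here. *Postn*, *Mmp12*, *Capg* and *Cd38* lie near the dashed line of equal change, and *Olr1* (1.21 and -0.02) lies near 0 on the HS axis.

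Genes were also read in groups. Of 633 genes in 38 lists, 612 were in the table, and counts below are of members at an unadjusted p under 0.05. Those of the full FT fit are to be set beside 2.86% higher and 1.74% lower over all genes, and HS counts beside 1.74% and 2.96%. Other fits had other totals of the 16810 genes. These were 998 higher and 1052 lower without FT 1 week replicate 1, 502 and 353 without replicate 2, and 524 and 336 without replicate 3. Without FT 2 weeks replicates 1, 2 and 3 in turn they were 660 and 269, 291 and 279, and 407 and 270. The immediate-early covariate described below gave 572 and 479. Border macrophage genes were lower as a group. Of 11 members 7 were lower and none higher, with a median log2 fold change of -0.82 beside 0.01 for all genes. *Folr2* was the DE member, and *F13a1*, *Stab1*, *Lyve1* (-1.39), the reductase gene *Cbr2* (-0.99), the chemokine gene *Pf4* (-0.82) and the mannose receptor gene *Mrc1* (-0.56) were the others. Their summed level, of which *Stab1* was the larger part in each FT sample, was 912, 1035 and 1032 CPM at 1 week. It was 616, 474 and 486 CPM at 2 weeks, and 699 to 739 CPM in NI samples. The sum thus went below its NI range, whereas *Folr2* stayed above its NI mean at 2 weeks. *Siglec1* was the single member with a positive value (0.32). After HS the median was -0.58, and 6 of the 11 were lower. The count after FT was 7 without any single sample other than FT 2 weeks replicate 1, where it was 6.

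Astrocyte genes had the lowest median of all lists. Here 11 of 18 members were lower and none was higher, with a median of -1.21. No member was DE in the main limma fit. *Gfap* was DE by the edgeR likelihood ratio test and by DESeq2, and *Sox9* by the former. The water channel gene *Aqp4* had 11.7, 15.9 and 22.2 CPM at 1 week and 1.59, 6.36 and 6.49 CPM at 2 weeks (log2 fold change -1.83, limma adjusted p = 0.70), and *Serpina3n*, an inhibitor of proteases that reactive astrocytes secrete, had 26.4, 25.5 and 28.3 CPM and then 4.31, 12 and 8.17 CPM (-1.76, limma adjusted p = 0.91). The glutamate transporter gene *Slc1a2* (-1.37), the gap junction gene *Gja1* (-1.51) and the transcription factor gene *Sox9* (-1.14) were also among the 11. The list summed to 471, 535 and 597 CPM at 1 week and to 214, 391 and 269 CPM at 2 weeks, against 625 to 1153 CPM in NI samples. FT 2 weeks replicate 1 had the lowest sum, and without it 5 of 18 members were lower and the median was -0.64. After HS 1 of 18 was lower, with a median of -0.10. There too replicate 1 at 2 weeks had the lowest sum, 201 CPM against 463 and 445 CPM in its replicates. *Vim*, an intermediate filament gene of astrocytes and macrophages alike, went the other way, with 73.2, 43.1 and 48.7 CPM at 1 week and 64.3, 121 and 103 CPM at 2 weeks (0.79, limma adjusted p = 0.81). Whether astrocyte RNA in the sort took part in these values was not tested.

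Genes of lipid-laden and damage-associated microglia were higher in 7 of 27 members and lower in none, with a median of 0.40. Beside *Itgax*, the lipoprotein lipase gene *Lpl* had 449, 820 and 889 CPM at 1 week and 1536, 1032 and 1038 CPM at 2 weeks (0.78, limma adjusted p = 0.54), the galectin gene *Lgals3* had a log2 fold change of 0.97, the cholesterol hydroxylase gene *Ch25h* 0.82, *Csf1* 0.80, and *Spp1* and *Ccl6* 0.63 each. *Gpnmb* was at 223, 246 and 291 CPM at 1 week and 238, 260 and 212 CPM at 2 weeks (-0.09). It was 2.91 CPM in NI samples, so that it had reached its later level by the first of these times. After HS the median was 0.42, with 9 of 27 higher. The FT count was between 4 (without FT 2 weeks replicate 1) and 12 (without FT 1 week replicate 3). It was 6, with a median of 0.22, when FT 1 week replicate 1 was left out.

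Homeostatic genes showed how far a list could rest on a single sample. In all samples 1 of 22 was lower, *Ltc4s*, with a median of -0.22. Without FT 1 week replicate 1, 12 of 22 were lower and the median was -0.53, beside 1052 of all 16810 genes lower in that fit. *P2ry12* had 1182 CPM in that sample and 3668 and 3843 CPM in the other samples at 1 week, against 2319, 1709 and 1834 CPM at 2 weeks. *Tmem119* had a log2 fold change of 0.01 and *Cx3cr1* of -0.40 in the full set, neither at an unadjusted p under 0.05.

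**Figure D4:**
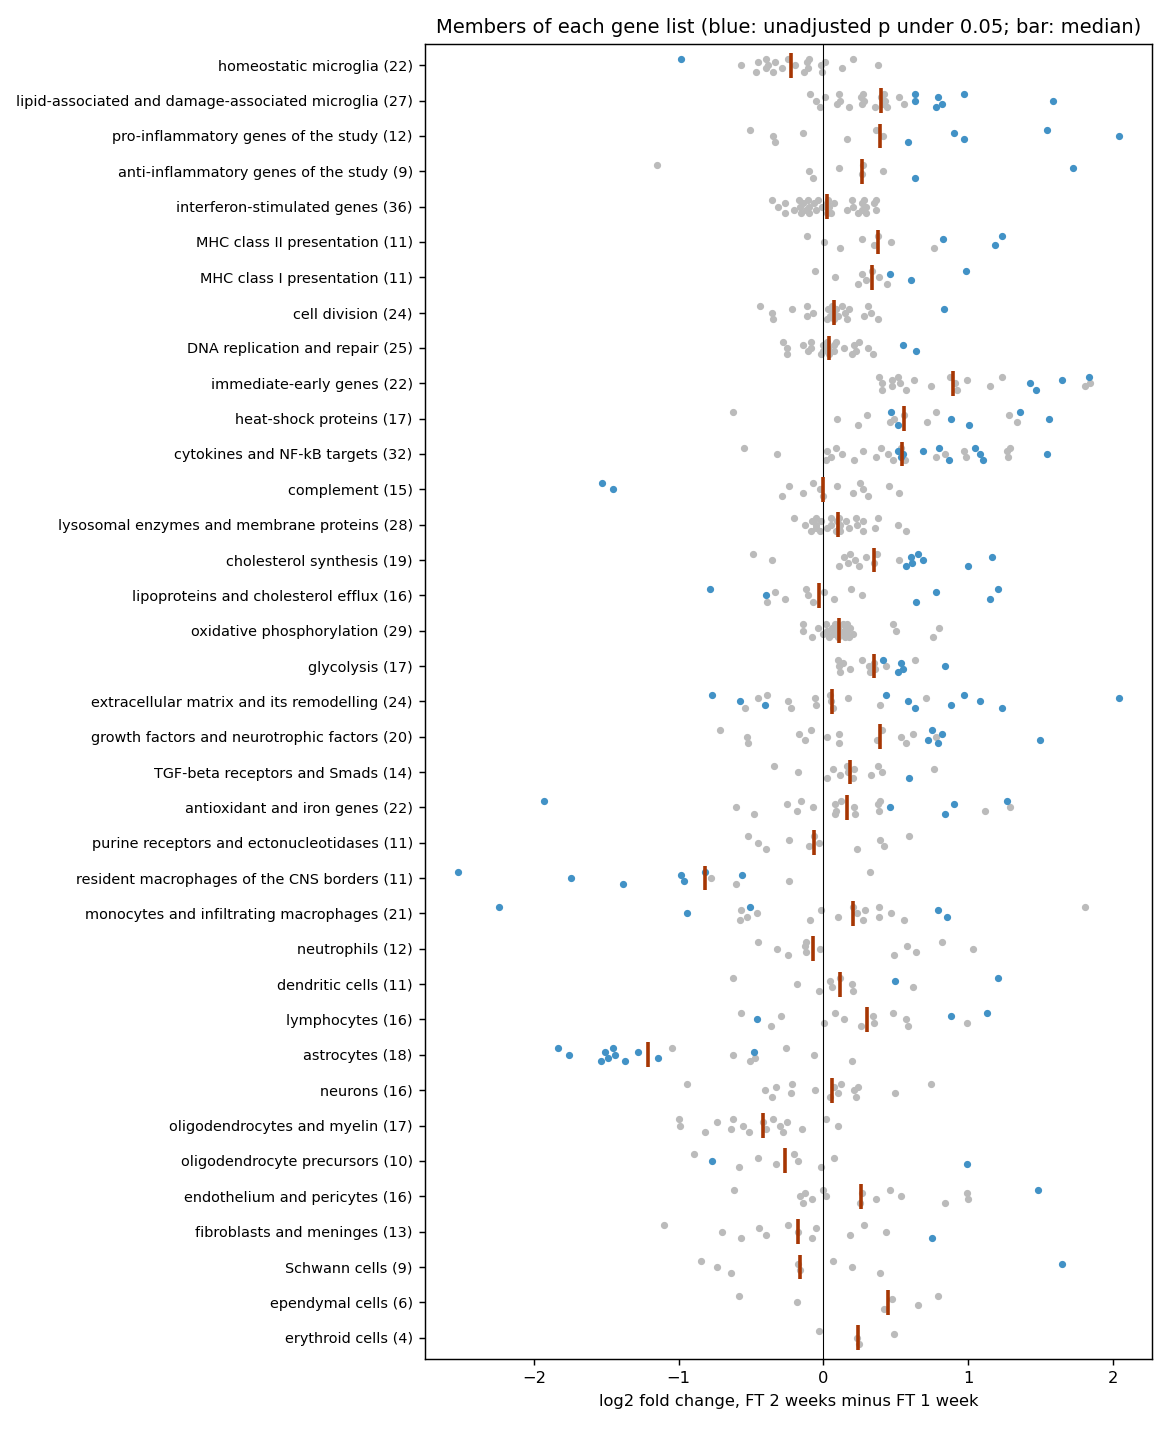
Log2 fold change (FT 2 weeks minus FT 1 week) of each member of 37 gene lists, with 1 point per gene, blue at an unadjusted p under 0.05, a bar at each list's median and the number of members in brackets. The medians are lowest for astrocytes (-1.21) and border macrophages (-0.82) and highest for immediate-early genes (0.89).

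The inflammatory genes that the study listed were chosen on these samples, so that their counts are not independent evidence. Of 12 pro-inflammatory genes, 5 were higher (*Mmp12*, *Il1b*, *Lgals3*, *Cxcl9* and *Cybb*), with a median of 0.39. Of 9 anti-inflammatory genes, 2 were (*Il1rn* and *Spp1*), with a median of 0.27, or 1 and -0.03 without FT 1 week replicate 1. The T cell chemoattractant gene *Cxcl9* had 6.97, 8.74 and 12.1 CPM at 1 week and 19.7, 15 and 17.7 CPM at 2 weeks (0.91, limma adjusted p = 0.62). *Arg1*, an arginine-consuming enzyme gene, was at 5.78, 2.48 and 2.29 CPM and then 1.22, 1.04 and 1.30 CPM (-1.15, limma adjusted p = 0.998), below its 72 h mean of 42.8 CPM.

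Cytokines and NF-kB targets were higher in 10 of 32 members and lower in none (median 0.54). After HS the median was -0.19, with 0 of 32 past the limit and 8 positive, and the FT count also fell to 5 higher and 2 lower with the immediate-early covariate described below. The chemokine gene *Ccl5* had 71.4, 76.1 and 106 CPM at 1 week and 171, 169 and 178 CPM at 2 weeks (1.05, limma adjusted p = 0.31), with an NI mean of 9.64 CPM. The B cell chemoattractant gene *Cxcl13* had 18.3, 16.6 and 30.04 CPM and then 39.0, 38.7 and 38.0 CPM (0.87, limma adjusted p = 0.84), and it was at 0.304 CPM in NI samples. Both groups were non-overlapping for *Ccl5* and *Cxcl13*. For *Il1b* they overlapped, with 156, 42.5 and 53.4 CPM at 1 week and 38.4, 460 and 501 CPM at 2 weeks (1.54). The count was 22 without FT 2 weeks replicate 1, 16 without FT 1 week replicate 1, 6 without FT 1 week replicate 2 or FT 2 weeks replicate 3, and 3 without FT 2 weeks replicate 2.

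The same samples differed in immediate-early genes, which cells switch on within minutes of a stimulus, handling included. All 22 had positive log2 fold changes (median 0.89) and 4 were at an unadjusted p under 0.05 (*Egr2*, *Atf3*, *Nr4a2* and *Maff*), yet the groups overlapped for every member. Their sum was 7662, 3002 and 2380 CPM at 1 week and 1966, 12275 and 12453 CPM at 2 weeks, so that replicate 1 was the high sample at 1 week and the low one at 2 weeks. *Fos* followed this order, with 1445, 420 and 314 CPM and then 225, 2281 and 2552 CPM. The 3 NI samples had sums of 8178 to 13331 CPM, and HS 2 weeks replicate 1, at 3345 CPM, was likewise far below its replicates (15026 and 16243 CPM). The count of members was 15 without FT 1 week replicate 1, 21 without FT 2 weeks replicate 1 and between 1 and 3 without any of the other 4 samples. After HS the median was -0.33.

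Heat-shock genes were higher in 6 of 17 members (median 0.56), among them *Hsp90aa1* (1.01) and *Dnajb1* (1.36), and their sum was 5451, 8570 and 9038 CPM at 1 week and 7549, 13301 and 11729 CPM at 2 weeks. After HS 0 of 17 were higher and 1 lower (median -0.01). Without FT 2 weeks replicate 2 or 3 the FT count was 1 and 2, and without FT 2 weeks replicate 1 it was 12. With the summed immediate-early level as a covariate, an alternative chosen after seeing the data, 15 genes were DE after FT, and 10 of the 12 were still among them, *Pde2a* (limma adjusted p = 0.0547) and *Tubb6* (0.0668) not. In the same fit the cytokine and NF-kB list had 5 members higher and 2 lower (median 0.26), the growth factor list 4 higher (median 0.20), the heat-shock list 4 higher and 1 lower (median 0.37) and the immediate-early list itself 5 higher and 1 lower (median 0.13). Lipid-laden and damage-associated genes then had 11 higher (median 0.45), border macrophage genes 7 lower and 1 higher (median -0.88), astrocyte genes 13 lower (2 of them DE) and oligodendrocyte genes 6 lower (median -0.87).

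**Figure D5:**
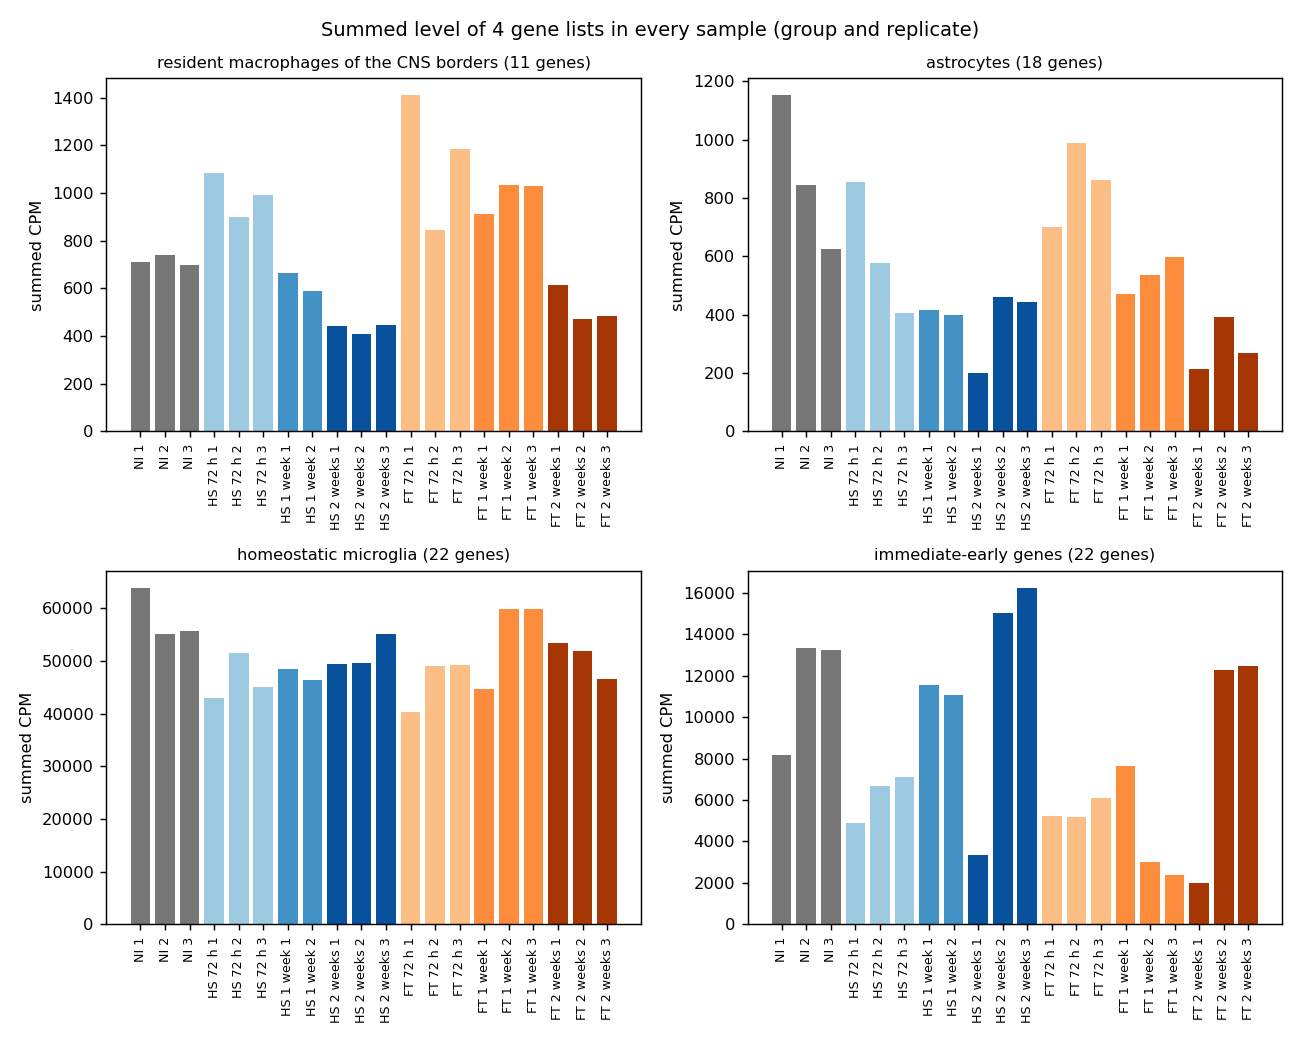
Summed CPM of 4 gene lists in each of the 20 samples, with 1 bar per sample, coloured by group. The FT 2 weeks bars lie below the FT 1 week bars for border macrophage genes (474 to 616 against 912 to 1035 CPM) and astrocyte genes (214 to 391 against 471 to 597 CPM), and the bars of both times overlap for homeostatic and immediate-early genes.

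Metabolic lists differed from each other. All 17 glycolysis genes had positive values, 5 of them at an unadjusted p under 0.05 (median 0.35), including the lactate dehydrogenase gene *Ldha* (269, 380 and 394 CPM against 524, 539 and 438 CPM, log2 fold change 0.54) and the glucose transporter gene *Slc2a1* (0.52). The count was 1 without FT 2 weeks replicate 2 and 3 without FT 2 weeks replicate 1, and after HS it was 0 of 17 (median 0.22). In the mitochondrial list of oxidative phosphorylation 0 of 29 members were past this limit (median 0.10), or 2 lower without FT 1 week replicate 1. Cholesterol synthesis genes and their regulators were higher in 7 of 19 (median 0.35), among them *Fdps* (0.69), *Insig1* (1.00) and *Cyp51* (0.61), with 3 of 19 without FT 1 week replicate 1 or FT 2 weeks replicate 1. Lipoprotein and efflux genes were mixed, with 4 of 16 higher (*Olr1*, *Cd36*, *Lpl* and *Apoc4*) and 2 lower, the lipid transfer gene *Pltp* (-0.79) and the efflux pump gene *Abca1* (-0.40).

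Matrix genes also went both ways. Of 24 members 8 were higher and 3 lower, with a median of 0.06. Those higher included *Mmp12*, *Plau*, *Plaur*, the protease gene *Adam8* (0.88) and the hyaluronan receptor gene *Cd44* (0.59). Those lower were *Vcan* (-0.77) and *Sparc* (-0.58), which encode matrix proteins, and the gelatinase gene *Mmp2* (-0.40). After HS 4 were higher and 2 lower (median 0.12). Without FT 1 week replicate 1, or without FT 2 weeks replicate 1, 5 members were higher. Growth factor genes were higher in 5 of 20 (median 0.39), namely *Hbegf* (1.5), *Vegfa* (0.82), *Csf1* (0.80), *Areg* (0.75) and *Pdgfb* (0.72), and this count ran from 1 to 8 without single samples (1 without FT 1 week replicate 3, 2 without FT 1 week replicate 2 or FT 2 weeks replicate 3, 3 without FT 2 weeks replicate 2, and 8 without FT 1 week replicate 1). After HS 1 was higher and 2 lower (median -0.13).

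Antigen presentation genes of class II were higher in 3 of 11 members (median 0.38), *Cd74*, the invariant chain, having 457, 787 and 999 CPM at 1 week and 1106, 2132 and 1988 CPM at 2 weeks (1.24, limma adjusted p = 0.68). After HS 5 of 11 were higher (median 0.52). Of 11 class I genes 3 were higher, *H2-D1* (0.99), *H2-K1* (0.60) and the peptide transporter gene *Tap1* (0.46). After HS 0 of 11 were past the limit, with a median of 0.28. These members belong to families of near-identical genes, *H2-D1* and *H2-K1* above all, so that the split of reads among them is uncertain. Class II had 1 higher member without FT 1 week replicate 1 or FT 2 weeks replicate 2 or 3, and 6 without FT 1 week replicate 3. Class I had 0 without FT 2 weeks replicate 2, 1 without FT 2 weeks replicate 1 and 2 without FT 1 week replicate 1.

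Several programs held no more than 2 such genes. Of 36 interferon-stimulated genes 0 were past the limit (median 0.03), although 9 were lower without FT 1 week replicate 1. Of 24 cell division genes 1 was higher (*Cdc20*), and *Mki67*, the antigen of cycling cells, had 7.93, 9.83 and 7.57 CPM at 1 week and 9.27, 8.97 and 10.5 CPM at 2 weeks against a mean of 130 CPM at 72 h after FT. Among 25 replication and repair genes 2 were higher (*Pcna* and *Mcm5*), and *Brca1* was at 1.85 to 2.76 CPM at 1 week and 1.68 to 2.60 CPM at 2 weeks. Complement had 2 of 15 lower (*Cfp* and *Clu*), or 5 without FT 1 week replicate 1, whereas *C1qb* lay between 10391 and 13864 CPM in all 6 samples. Lysosomal genes had 0 of 28 past the limit (median 0.10), or 4 lower without FT 1 week replicate 1 and 3 higher without FT 1 week replicate 3, with *Ctsd* at 23384 to 44294 CPM.

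Lists of other cell types and of signalling held few such members. Monocyte and infiltrating macrophage genes had 2 of 21 higher (*Vim* and *Crip1*) and 3 lower (*Itga4*, *Cd5l* and *Saa3*), dendritic cell genes 2 of 11 higher (*Ccl22* and *Naaa*), and lymphocyte genes 2 of 16 higher (*Cd3e* and *Cd79a*) and 1 lower (*Cd79b*). *Cd3e* had 5, 4 and 2 reads at 1 week and 3, 31 and 19 at 2 weeks. *Cd79a* had 6, 4 and 13 reads and then 6, 25 and 27. Both were near the floor and overlapped between the times. Neutrophil genes had 0 of 12, with a median of -0.07, but 5 of 12 higher and a median of 1.32 without FT 2 weeks replicate 1. There were 0 of 16 among neuronal genes, 0 of 17 among oligodendrocyte genes (median -0.42), 0 of 6 among ependymal genes, 0 of 4 among erythroid genes and 0 of 6 among sex-linked genes. Oligodendrocyte precursor genes had 1 of 10 higher (*Cspg4*) and 1 lower (*Vcan*), fibroblast genes 1 of 13 higher (*Igfbp6*) and Schwann cell genes 1 of 9 higher (*Egr2*, also an immediate-early gene). Of 14 TGF-beta receptor and Smad genes *Acvrl1* (0.59) was higher, and none of 11 purine receptor genes was past the limit (0 of 11). Antioxidant and iron genes had 4 of 22 higher, the transferrin receptor gene *Tfrc* (0.90), *Srxn1* (1.27), *Sqstm1* (0.84) and *Txnrd1* (0.46), and 1 lower, *Gpx3*. Without FT 1 week replicate 1, 3 TGF-beta genes were higher, 4 purine receptor genes lower, 5 antioxidant and iron genes higher and 3 lower, 3 endothelial genes higher and 3 sex-linked genes lower.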

How the data were processed

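Microglia RNA was measured in 20 samples of 7 groups, and groups were taken from the labels. The authors trimmed reads with the FASTX-Toolkit, aligned them with TopHat2 2.0.9 to mm10 (GRCm38), counted them per gene with HTSeq 0.5.4p3 and normalised them with edgeR 3.3.6, and they kept genes with 10 counts or more in at least 2 replicates. Strandedness is not given in the sources used here. The deposited signal is this normalised read count, written as CPM, and whole reads were recovered for 100% of 336200 values (within 0.001 of a read). Values of all 20 samples were fitted as log2(CPM + 0.5) with limma 3.58.1 (R 4.3.3), with a mean per group, a mean-variance trend and Benjamini-Hochberg adjustment over 16810 genes, and fold changes on this scale understate those of low genes. edgeR 4.0.16 and DESeq2 1.42.0 were run on recovered reads as alternatives. The fit was tested on simulated data.

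Named genes were every DE gene, in each direction the 10 others with the smallest p and a group mean of at least 5 CPM, per list the 3 highest members and up to 4 with the smallest p under 0.05, and genes the study discusses. Other list members and genes outside this rule were named after their values were seen. The members and lists were chosen with earlier results of these data known. Symbols were matched to the GRCm38 annotation for 16630 of 16810 genes, and promoter windows came from RefSeq. A gene is not reported here, although counts include it.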

Additional observations from a re-analysis of the deposited data

Results flagged for a closer look

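Only the 188 genes named by the rule above were searched here, many of them chosen by a small p after FT. For 3 of them the samples of both times did not overlap after either injury and the 2 injuries went in opposite directions. The share of all genes with this pattern was not counted. Non-overlap within an injury held for 7.32% of all genes after FT and 19.9% after HS. No difference passed adjustment over all genes. The 3 genes were chosen by this opposite pattern, which favours a difference away from 0, and HS at 1 week had 2 samples. Their intervals are descriptions and not independent support. *Igfbp6*, which encodes a binding protein of insulin-like growth factors, had 2.37, 2.40 and 2.60 CPM at 1 week and 4.02, 5.49 and 4.05 CPM at 2 weeks after FT, and 6.54 and 7.58 CPM and then 1.87, 2.57 and 3.26 CPM after HS. The FT change minus the HS change was 2.07 on the log2 scale (95% interval 1.28 to 2.87, limma adjusted p = 0.382). *Hspa1l*, a member of the HSP70 family, had 1.26, 0.387 and 1.18 CPM and then 2.15, 5.05 and 4.05 CPM after FT, against 5.31 and 4.33 CPM and then 2.49, 1.92 and 2.66 CPM after HS, a difference of 2.46 (1.31 to 3.61, limma adjusted p = 0.9998). *Lyz1*, a lysozyme gene, differed by -0.80 (-1.53 to -0.07, limma adjusted p = 0.9998), with 612 to 992 CPM and then 593 to 598 CPM after FT and 345 to 452 CPM and then 476 to 670 CPM after HS. It is a close paralog of *Lyz2*, and reads may have been divided wrongly among this pair.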

How the results depend on the processing

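None of the 12 DE genes changed sign under the alternatives run, but the medians of several lists did. Over all alternatives they ran from -0.03 to 0.31 for anti-inflammatory genes, -0.25 to 0.15 for interferon-stimulated genes, -0.14 to 0.21 for lysosomal genes, -0.17 to 0.09 for lipoprotein genes, -0.50 to 1.32 for neutrophil genes and -0.98 to 0.09 for oligodendrocyte genes. Medians also changed sign for purine receptor (-0.25 to 0.13), neuronal (-0.19 to 0.19), fibroblast (-0.43 to 0.15) and Schwann cell genes (-0.33 to 0.11). The complement, oxidative phosphorylation, replication and repair, matrix and monocyte lists did so as well. The split of DE genes, 8 higher and 4 lower, became 3 and 5 with all columns scaled to the same total. The 12 DE genes after FT became 6 in a fit of just the 6 samples compared, 40 by the edgeR likelihood ratio test and 33 by DESeq2, and 4 to 25 when single FT samples were left out. The 773 genes at an unadjusted p under 0.05 became 484 with only the samples compared, and 570 to 2050 without single FT samples. Same-numbered samples did not deviate together (correlations -0.37, -0.08 and -0.14), so that the numbers were not taken as pairs. With a replicate block 5 genes were DE, also 5 with the block and only the samples compared, where 366 had an unadjusted p under 0.05. After HS the 2 DE genes became 1 with 0.1 CPM added, with the replicate block or by the quasi-likelihood test, 6 with the block and only the samples compared or by the likelihood ratio test, 4 by DESeq2, 5 with the immediate-early covariate (chosen after seeing the data) and 0 to 2 without single HS samples. For the FT change minus the HS change, 1 gene passed by the likelihood ratio test and 1 by DESeq2, and 0 under the other alternatives. *Gpx3*, *Postn* and *Folr2* were DE under all alternatives run. The causes were not tested.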
